A study of Mus musculus with 24 samples.

Results

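Transcripts of the Cyp2c cytochrome P450 genes were described in 24 mouse livers collected 20 weeks after surgery, 8 libraries in each of 3 groups. One group had sham surgery (Sham), another had Roux-en-Y gastric bypass (RYGB), a rerouting of the gut past most of the stomach, and the third was held by calorie restriction at the weight of the bypass group (WM). Strain, sex, age and diet were not given in the sources used here, nor whether the WM mice were also operated on. Of 10 Cyp2c genes chosen by name, 9 were found by symbol among the 14995 genes of the table, and all 9 passed the filter on low counts that left 13121 genes for testing. Cyp2c44 was not found under that symbol. RefSeq gives Cyp2c44 as a synonym of Cyp2c23, which was in the table and is described below with the other Cyp2c genes.

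Cytochrome P450 enzymes sit in the membrane of the endoplasmic reticulum and insert 1 oxygen atom from molecular oxygen into a substrate, with electrons that P450 oxidoreductase (Por) passes to them. The Cyp2c enzymes act on drugs and on fatty acids: many turn arachidonic acid into epoxides (EETs), which soluble epoxide hydrolase (Ephx2) then opens to diols, and others hydroxylate it. In mouse liver several of them, among them Cyp2c29 and Cyp2c37, are made mainly by the hepatocytes around the central vein, and the nuclear receptors CAR (Nr1i3) and PXR (Nr1i2) can induce some of them. The genes have arisen by repeated duplication and lie side by side, so that some of their messages share long stretches of sequence.

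In the GENCODE M21 gene models on GRCm38, 12 of the 13 Cyp2c genes in the table lay on chromosome 19 between 39007019 and 40187333, a span of 1180.3 kb, and Cyp2c23 lay apart from them at 44005022-44029208 on the minus strand. In order along the chromosome, Cyp2c55 (39007019-39042693) and Cyp2c29 (39269405-39330713) were on the plus strand, Cyp2c38 (39389556-39463075) on the minus strand and Cyp2c39 (39510862-39568529) on the plus strand. Cyp2c68 (39688834-39741054) and Cyp2c40 (39767071-39812814) followed on the minus strand. The last 3 members were Cyp2c37 (39992424-40012243, plus), Cyp2c54 (40037940-40073827, minus) and Cyp2c50 (40089688-40113950, plus). Cyp2c29 overlapped the pseudogene Cyp2c53-ps on the same strand.

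The kinship of the genes can be read in their promoters, where some members had near-identical stretches of sequence. Cyp2c37 was alike with Cyp2c50, and Cyp2c40 with Cyp2c68, while Cyp2c29 and Cyp2c39 were less alike. Cyp2c37 and Cyp2c50 also share 3′ sequence, as do Cyp2c40 and Cyp2c68, as described below. Whether promoter likeness has a part in how the genes moved was not tested. RefSeq (GRCm38.p6) gave promoters of 300 bases, from 250 before to 50 after each transcription start, for 8 of the members. Cyp2c39 had another promoter at chr19:39347096-39347395, outside the gene model given above, which also held the motif and is counted below as well. The 7 letters CAAAGTC, a half-site of the kind bound by the liver factor HNF4, were searched on both strands and stood in 9 of 12 Cyp2c promoters, against 1459 of 32851 promoters of the table (4.44%). With an added C the 8-letter form CAAAGTCC stood in 5 of 12, against 1.42% of all promoters. Cyp2c37 carried CAAAGTC at 184 and at 116 bases before the start, and only the window at 184 is shown. Windows of 47 bases on the gene's own strand are given below, 5′ to 3′, with the motif in capitals, and with TAAGATC in Cyp2c50 marking the letters at the matching place. The windows of Cyp2c29 (chr19:39286956-39287002), Cyp2c39 (chr19:39510716-39510762), Cyp2c68 (chr19:39741152-39741198), Cyp2c40 (chr19:39812833-39812879), Cyp2c37 (chr19:39992220-39992266) and Cyp2c50 (chr19:40089477-40089523) are these.
Cyp2c29: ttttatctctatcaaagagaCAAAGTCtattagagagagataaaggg
Cyp2c39: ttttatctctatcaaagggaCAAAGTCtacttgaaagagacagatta
Cyp2c68: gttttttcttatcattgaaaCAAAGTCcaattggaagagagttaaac
Cyp2c40: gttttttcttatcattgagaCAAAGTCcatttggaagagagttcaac
Cyp2c37: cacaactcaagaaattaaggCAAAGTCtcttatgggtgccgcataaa
Cyp2c50: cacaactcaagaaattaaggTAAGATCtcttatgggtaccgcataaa
Counted from 1 at the 5′ end of the motif, Cyp2c50 carried C1T, A4G and G5A relative to Cyp2c37, and 43 of the 47 bases were the same. A match describes these letters only, and its part in any result was not tested.

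Libraries were made from the 3′ end of messenger RNA, so a transcript gives about 1 fragment, and levels are CPM, counts scaled to the same total in each library after scaling for library composition (TMM). Levels of different genes can then be set side by side without division by length. Each library held 13659647 to 22766612 counts. Libraries of 1 group differed from each other by more than counting noise, with a chi-square per degree of freedom of 26.4 to 578. Nothing in the labels ties a library to a separate cage, surgery day or sequencing run, so p-values measure the spread between these libraries. The 6 hepatocyte markers, such as Alb, were all present and summed to 29600 to 70800 CPM in Sham, 73500 to 134000 CPM in WM and 77500 to 133000 CPM in RYGB. The hepatocyte sum was thus higher in each WM and RYGB library than in any Sham library, and in whole liver fewer cells of a type and less RNA per cell cannot be told apart. Summed markers of stellate cells had medians of 550 CPM in Sham, 270 CPM in WM and 298 CPM in RYGB, those of Kupffer cells 115, 297 and 299 CPM, those of endothelial cells 89.9, 236 and 205 CPM and those of erythrocytes 1430, 3630 and 4030 CPM. Summed cholangiocyte markers had medians of 67.9, 26.5 and 42.9 CPM, mostly from Spp1 (means 40.2, 10.7 and 15.2 CPM), which recruited macrophages also make, and Sox9 (25.6, 13.1 and 23.1 CPM). The keratin Krt19 went the other way, with means of 0.976, 2.74 and 1.61 CPM. The part of these cell types in the Cyp2c values was not tested. Transcripts of pancreatic acinar cells (15 of 17 markers in the table) summed to 3150 CPM in RYGB 19, to 3000 CPM in RYGB 18 and to 1400 CPM in Sham 17, against 10.6 to 188 CPM elsewhere. In WM that sum was nearly all Cela1 (mean 122 CPM), with every other marker in the table at a mean of 0.703 CPM or less. Calls of the 9 genes that changed without Sham 17, RYGB 18 and RYGB 19 are given below with both values.

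The 9 genes fell into patterns that differed in which treatment moved them. Against Sham, 6 rose after RYGB and none fell, and 5 rose and 3 fell in WM. Of all genes tested, 12.7% rose and 11.0% fell in RYGB against Sham, and 16.5% rose and 15.0% fell in WM against Sham. Between RYGB and WM, where 1.06% of all genes were higher in RYGB and 0.434% lower, 4 of the 9 genes were higher in RYGB and none lower. Cyp2c37, Cyp2c50, Cyp2c54 and Cyp2c68 rose in both treatments with no called difference between them, and Cyp2c40 rose in both and was higher after RYGB. Cyp2c29 rose after RYGB only and was higher there than in WM. Cyp2c38, Cyp2c39 and Cyp2c55 fell in WM, and Cyp2c38 and Cyp2c55 were higher in RYGB than in WM. All calls are from edgeR's quasi-likelihood test with Benjamini-Hochberg adjustment over 13121 genes at 0.05, and both comparisons with Sham use the same 8 Sham libraries.

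**Figure D1:**
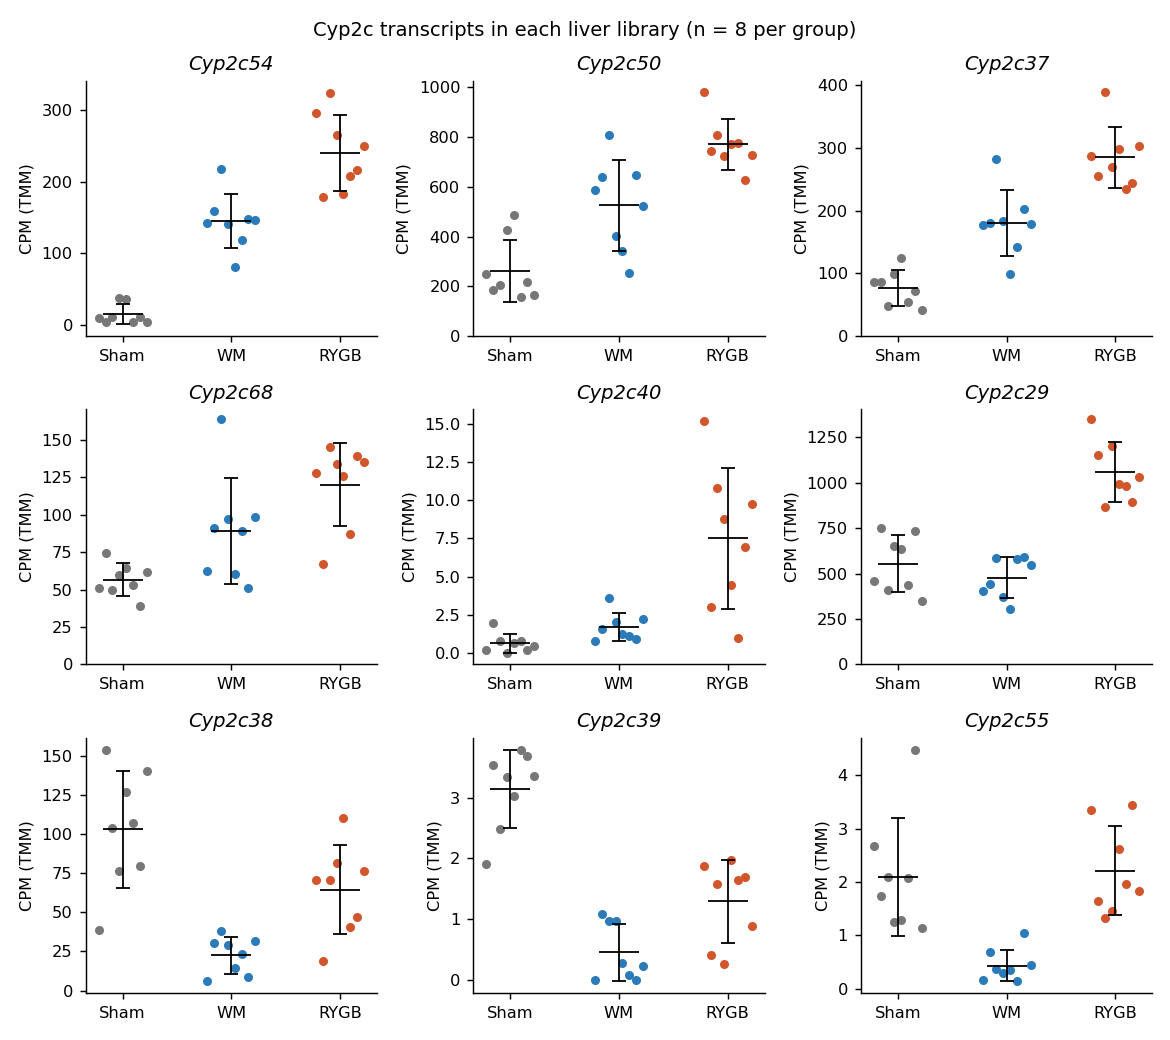
Level of each Cyp2c gene in every library, as TMM-scaled CPM on linear axes, with 8 libraries each in Sham, WM and RYGB. Horizontal bars are the mean and whiskers the SD. Cyp2c54 was at 3.42 to 37.7 CPM in Sham and at 81.2 CPM or more in each other library, while Cyp2c38, Cyp2c39 and Cyp2c55 were lowest in WM.

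The median log2 fold change of the 9 genes was 1.09 in RYGB against Sham, 0.66 in WM against Sham and 1.15 in RYGB against WM, while the median over all tested genes was -0.015, -0.0079 and -0.016. Under scaling by library totals alone, all genes shifted by -0.36 in RYGB against Sham and by -0.34 in WM against Sham, and the medians of the 9 genes were then 0.76 and 0.39. That scaling also changed the split of all calls, from 1666 higher and 1443 lower to 754 higher and 3534 lower in RYGB against Sham, and from 2161 higher and 1964 lower to 1049 higher and 3637 lower in WM against Sham. A correction for GC content and transcript length gave 1936 higher and 1043 lower, and 2465 higher and 1357 lower. The slope of a library's log2 deviation against log2 transcript length over genes lay between 0.103 and 0.253 for Sham libraries, between -0.218 and 0.0522 for WM and between -0.158 and 0.0269 for RYGB, so Sham stood apart from both. With that correction 7 of the 9 genes were called in RYGB against Sham, 8 in WM against Sham and 4 in RYGB against WM.

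**Figure D2:**
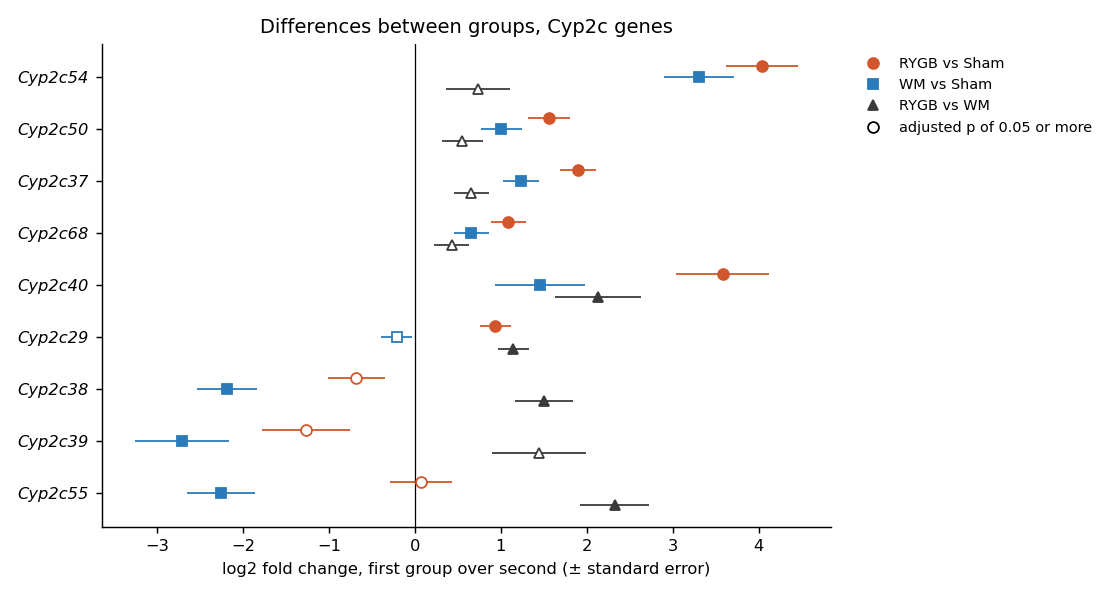
Log2 fold change of each Cyp2c gene in the 3 comparisons, with its standard error, from edgeR. Filled symbols have an adjusted p under 0.05. RYGB against Sham ran from -1.27 (Cyp2c39, not called) to 4.04 (Cyp2c54), and WM against Sham from -2.71 (Cyp2c39) to 3.31 (Cyp2c54).

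Cyp2c54, an enzyme that acts on arachidonic and linoleic acid, moved most against Sham. Its level in Sham was 3.42 CPM at the lowest, 10.2 CPM at the median and 37.7 CPM at the highest. In WM the lowest, median and highest levels were 81.2, 145 and 218 CPM, and in RYGB 179, 233 and 325 CPM. Sham therefore lay wholly below both treatments, with Sham 6 and Sham 14 (37.7 and 36.6 CPM) well above the other Sham livers, which reached 11.1 CPM. The rise was 16.5-fold in RYGB (log2 fold change 4.04 ± 0.42 SE, adjusted p = 9.1e-08). It was 9.90-fold in WM (3.31 ± 0.41, adjusted p = 6.15e-07). RYGB and WM overlapped, and the difference of 0.73 ± 0.37 did not pass (adjusted p = 0.468), although all 8 RYGB libraries were above the WM median.

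Cyp2c50, a close relative that also epoxidises arachidonic and linoleic acid, was by mean level the most abundant member in WM and stood next to Cyp2c29 in the other groups. It ranged from 156 to 488 CPM in Sham (median 213), from 252 to 808 CPM in WM (median 556) and from 626 to 983 CPM in RYGB (median 759). The groups RYGB and Sham did not overlap, whereas the lower WM libraries lay within the Sham range. The highest Sham levels were again in Sham 14 and Sham 6, at 488 and 427 CPM. It rose 2.95-fold in RYGB (1.56 ± 0.24, adjusted p = 2.57e-05) and 2.01-fold in WM (1.01 ± 0.24, adjusted p = 0.00179). RYGB against WM gave 0.55 ± 0.24 (adjusted p = 0.342).

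Cyp2c37, which hydroxylates arachidonic acid, was at 41.5 to 125 CPM in Sham (median 79.2), 99.1 to 282 CPM in WM (median 179) and 234 to 389 CPM in RYGB (median 278). All RYGB libraries were above all Sham libraries, and 1 WM library reached into the Sham range. The level rose 3.73-fold in RYGB (1.90 ± 0.21, adjusted p = 2.92e-07) and 2.36-fold in WM (1.24 ± 0.21, adjusted p = 4.83e-05). RYGB was 0.66 ± 0.21 above WM on the log2 scale (adjusted p = 0.118), a difference that passed without WM 9 (0.78, adjusted p = 0.0406).

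Cyp2c68 was at 39.0 to 74.7 CPM in Sham (median 56.2), 51.3 to 164 CPM in WM (median 89.8) and 67.0 to 145 CPM in RYGB (median 131). The groups overlapped, with 7 RYGB livers above the Sham range and RYGB 11, at 67.0 CPM, inside it. It rose 2.12-fold in RYGB (1.09 ± 0.20, adjusted p = 0.000274) and 1.58-fold in WM (0.66 ± 0.20, adjusted p = 0.0143). The rise in WM did not pass under library totals (0.39, adjusted p = 0.168), and RYGB against WM gave 0.43 ± 0.20 (adjusted p = 0.419).

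Cyp2c40, a hydroxylase of arachidonic acid, was scarce. It was at 0 to 1.99 CPM in Sham (median 0.537), 0.81 to 3.63 CPM in WM (median 1.41) and 0.954 to 15.2 CPM in RYGB (median 7.89). These levels rest on 0 to 31 counts in Sham, 10 to 90 with WM and 15 to 283 with RYGB, and for Sham 6, with no count, 3 counts would be 0.223 CPM. Of the 8 RYGB livers, RYGB 22 (0.954 CPM) was within the Sham range and the other 7 were above it. The level rose 12.0-fold in RYGB against Sham (3.58 ± 0.54, adjusted p = 1.95e-05) and was 4.37-fold higher in RYGB than in WM (2.13 ± 0.50, adjusted p = 0.0205). The latter did not pass without WM 27 (2.04, adjusted p = 0.0511) or RYGB 10 (1.90, adjusted p = 0.0683), with values about as large. In WM against Sham the rise was 2.74-fold (1.46 ± 0.53, adjusted p = 0.0343), and it did not pass without the 3 libraries with acinar transcripts (1.32, adjusted p = 0.0766). It was also lost without any 1 of Sham 2, 6, 17 or 23 or WM 9, 13 or 30 (adjusted p up to 0.0887), under library totals (adjusted p = 0.0634) and with limma-voom (adjusted p = 0.0793).

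Cyp2c29, an arachidonate epoxygenase and the most abundant member in Sham and RYGB by mean level, rose after bypass and not in WM. It was at 350 to 753 CPM in Sham (median 547), 303 to 592 CPM in WM (median 497) and 865 to 1350 CPM in RYGB (median 1010). Every RYGB liver was above every liver of the other groups, and Sham and WM overlapped over most of their range. RYGB was 1.91-fold above Sham (0.94 ± 0.18, adjusted p = 0.000386) and 2.21-fold above WM (1.15 ± 0.18, adjusted p = 0.000501). WM against Sham gave -0.21 ± 0.18 (adjusted p = 0.391). That value was -0.52 under library totals (adjusted p = 0.0329) and 0.17 after the GC and length correction (adjusted p = 0.62), so it has no settled sign.

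Cyp2c38, which makes epoxides of arachidonic acid, went the other way in WM. It was at 39.0 to 154 CPM in Sham (median 105), 5.92 to 37.9 CPM in WM (median 26.3) and 18.7 to 110 CPM in RYGB (median 70.5). Every WM liver was below every Sham liver, and RYGB spread across both groups, with RYGB 11 lowest and RYGB 19 highest. WM was 4.54-fold below Sham (-2.18 ± 0.35, adjusted p = 2.35e-05). RYGB was 2.83-fold above WM (1.50 ± 0.34, adjusted p = 0.0154), but without the 3 libraries with acinar transcripts this was 1.25 (adjusted p = 0.0897). RYGB against Sham gave -0.68 ± 0.33 (adjusted p = 0.14), and it passed under library totals (-1.0, adjusted p = 0.0254) and with limma-voom (adjusted p = 0.0425).

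Cyp2c39, an arachidonate epoxygenase that also hydroxylates retinoic acid, was rare. It was at 1.90 to 3.79 CPM in Sham (median 3.34), 0 to 1.09 CPM in WM (median 0.251) and 0.263 to 1.98 CPM in RYGB (median 1.61). These are 44 to 74 counts in Sham, 0 to 24 with WM and 4 to 35 with RYGB, with no count in WM 1 and WM 27, where 3 counts would be 0.243 and 0.208 CPM. WM lay wholly below Sham (6.55-fold, -2.71 ± 0.55, adjusted p = 0.0004). In RYGB 7 livers were below the lowest Sham liver, yet the difference of -1.27 ± 0.51 did not pass (adjusted p = 0.0705). It did pass with DESeq2 (adjusted p = 0.0278), limma-voom (0.00432), library totals (0.025), the GC and length correction (0.0403), the compared groups alone (0.00917), or without WM 1 (0.0498) or WM 27 (0.0471). RYGB against WM gave 1.45 ± 0.54 (adjusted p = 0.25).

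Cyp2c55, a hydroxylase of arachidonic acid better known from the intestine, was also rare, at 2 to 90 counts a library. It was at 1.13 to 4.48 CPM in Sham (median 1.91), 0.151 to 1.04 CPM in WM (median 0.355) and 1.32 to 3.45 CPM in RYGB (median 1.90). WM lay wholly below both other groups, and RYGB lay within the Sham range. WM was 4.76-fold below Sham (-2.25 ± 0.40, adjusted p = 8.67e-05), and RYGB was 5.01-fold above WM (2.32 ± 0.40, adjusted p = 0.00103). RYGB against Sham gave 0.07 ± 0.36 (adjusted p = 0.908), with a sign that depended on the scaling and on single libraries. Of the intestinal markers only 3 of 9 were in the table, summing to 158 to 281 CPM in Sham, 66.5 to 238 CPM in WM and 132 to 353 CPM in RYGB. The sum was nearly all Fabp2, at means of 196 CPM in Sham, 158 CPM in WM and 198 CPM in RYGB. Lgals4 was at 1.82, 3.13 and 1.83 CPM in the same order, and Krt20 was at 0 in all WM and RYGB libraries. The part of these markers in the Cyp2c55 levels was not tested.

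Groups that did not overlap in CPM were found for 4 of the 9 genes in RYGB against Sham, where 5.39% of all genes tested had such groups, and for 4 of 9 in WM against Sham, where 5.82% did. In RYGB against WM they were found for 2 of 9 (Cyp2c29 and Cyp2c55), against 0.358% of all genes. Counts of called members stayed between 6 and 8 for RYGB against Sham, 7 and 8 for WM against Sham and 3 and 4 for RYGB against WM over 10 other settings.

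The summed level of the 9 genes, given without a test, was 1072 ± 277 CPM in Sham, 1443 ± 358 CPM in WM and 2550 ± 287 CPM in RYGB (mean ± SD, 8 libraries each). The sums ran from 766.1 to 1482 CPM in Sham, from 902.7 to 2101 CPM in WM and from 2179 to 3141 CPM in RYGB, so by TMM scaling RYGB lay above all other livers while WM overlapped Sham. Scaled by library totals alone, the sums ran from 882.2 to 1727 CPM in Sham (mean 1245), from 738.6 to 2289 CPM in WM (mean 1377) and from 1977 to 2922 CPM in RYGB (mean 2345), and RYGB and WM then overlapped. The pericentral hepatocyte markers (10 of 10 in the table) summed to 2910 to 5820 CPM in Sham, and to higher levels in WM (6450 to 8590 CPM) and RYGB (7460 to 10000 CPM). The sum was carried mainly by Cyp2e1, at means of 1470 CPM in Sham, 4480 CPM in WM and 4090 CPM in RYGB. Its members did not all go that way: in the same order Glul was at 809, 715 and 767 CPM, Lgr5 at 5.61, 6.52 and 6.35 CPM, Axin2 at 2.65, 2.63 and 2.31 CPM, Tbx3 at 42.8, 32.2 and 41.1 CPM and Rhbg at 22, 7.82 and 12.7 CPM. The 8 periportal markers summed to 2930 to 5050 CPM in Sham, 2800 to 4340 CPM in WM and 2740 to 4500 CPM in RYGB. Arg1 was the largest part, at means of 1720, 1390 and 1430 CPM in the same order. Hal (152, 243 and 265 CPM), Gls2 (159, 278 and 256 CPM) and Cdh1 (10.1, 18.3 and 45 CPM) were higher in both treatments. Cyp2f2 (752, 530 and 725 CPM), Sds (66.1, 50.3 and 30.2 CPM) and Hsd17b13 (286, 196 and 230 CPM) were lower. Pck1 was at 630, 596 and 677 CPM. The part of the pericentral markers or of the hepatocyte sum in the Cyp2c levels was not tested.

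The make-up of the Cyp2c message shifted as well. Cyp2c29 gave 51.6% ± 6.87 of the summed counts in Sham, 33.6% ± 6.64 in WM and 41.5% ± 4.24 in RYGB (mean ± SD). Cyp2c50 gave 23.8% ± 6.53, 35.9% ± 6.91 and 30.2% ± 1.97 in the same order, and was the largest share in most WM livers. Cyp2c54 went from 1.23% ± 0.93 in Sham up to 9.99% ± 0.833 with WM and 9.39% ± 1.62 with RYGB, and Cyp2c37 from 7.03% ± 1.40 to 12.4% ± 1.27 and 11.2% ± 1.77. Cyp2c38 gave 10.2% ± 4.63 in Sham and only 1.59% ± 0.725 in WM and 2.51% ± 1.07 in RYGB. Shares of Cyp2c54 did not overlap between Sham (0.306% to 2.78%) and either treatment (8.96% to 11.5% in WM, 7.34% to 12.4% in RYGB).

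**Figure D3:**
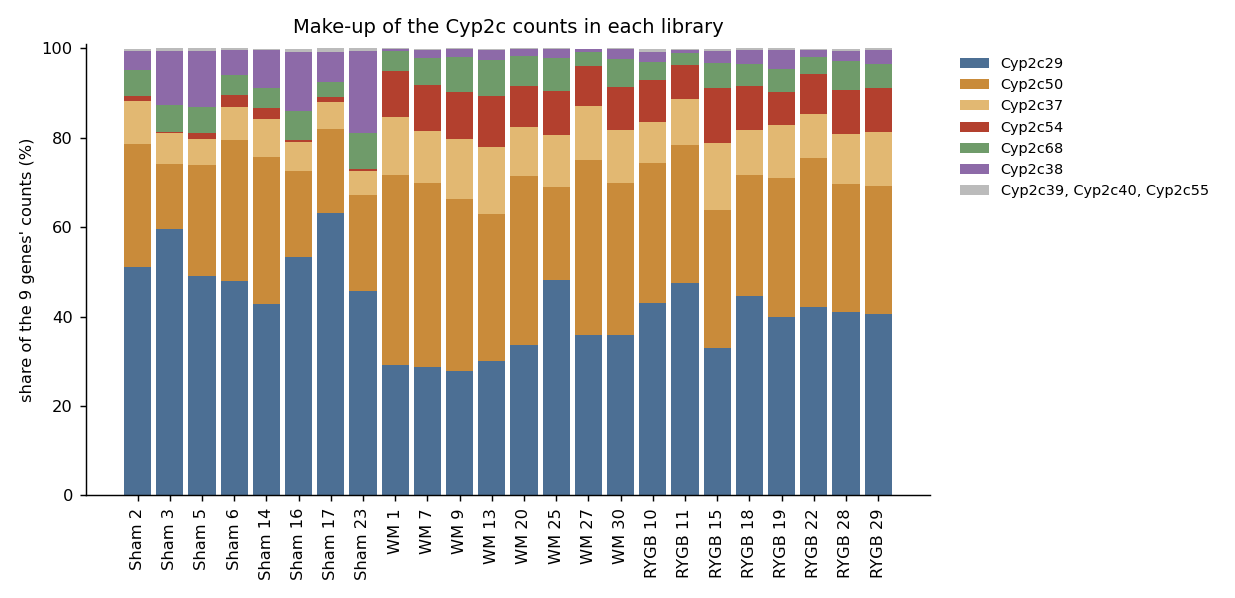
Share of each Cyp2c gene in the summed counts of the 9 genes, in percent, for each of the 24 libraries. Cyp2c54 (red) is at 0.306% to 2.78% in Sham and 7.34% to 12.4% in the treated livers, and Cyp2c38 (purple) is at 4.35% to 18.2% in Sham and at most 4.42% elsewhere.

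How far reads can be told apart differs between the genes. The last 500 bases of the longest coding transcript of each gene were cut into 451 windows of 50 bases, the read length, and compared with all annotated transcripts. Cyp2c29, Cyp2c38 and Cyp2c55 had no window with an exact copy in another gene, and 16.4% of those of Cyp2c29 came within 2 mismatches of another Cyp2c gene. Cyp2c37, Cyp2c50 and Cyp2c54 shared 30.4%, 27.5% and 27.1% of their windows exactly with each other. Cyp2c40 shared 74.3% and Cyp2c68 51.2%, with each other, Cyp2c67 and Cyp2c69. Cyp2c39 shared 12.0%, with Cyp2c38. How reads matching several genes were counted is not given in the sources used here, so the values of Cyp2c37, Cyp2c39, Cyp2c40, Cyp2c50, Cyp2c54 and Cyp2c68 are uncertain as single genes.

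**Figure D4:**
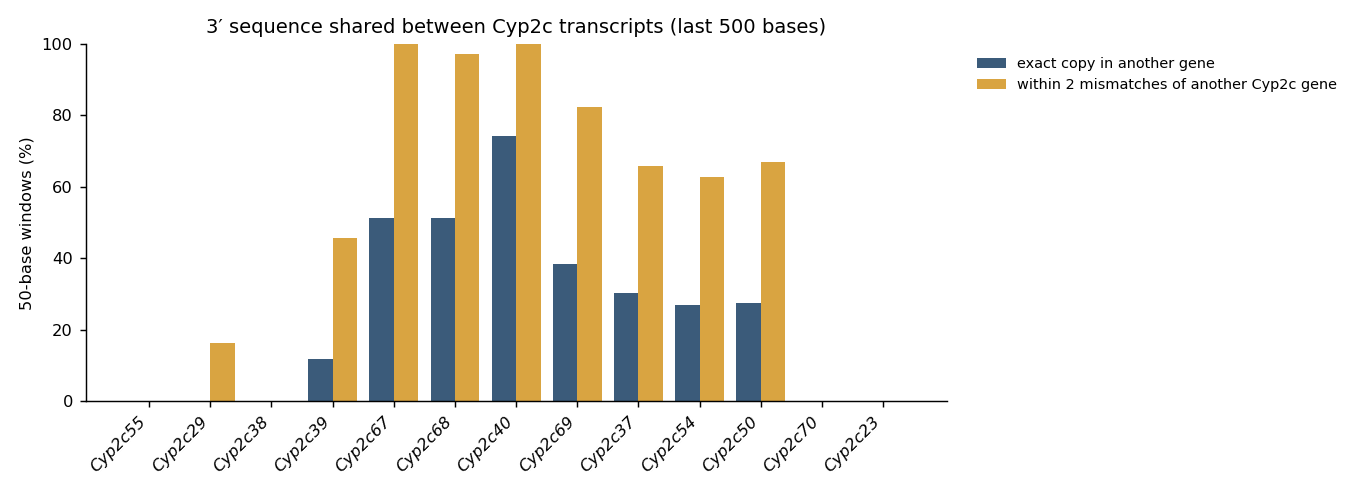
Percent of 50-base windows in the last 500 bases of each Cyp2c transcript that have an exact copy in another gene (blue) or come within 2 mismatches of another Cyp2c gene (gold), in chromosome order. Cyp2c40 has the highest exact share (74.3%), and Cyp2c55, Cyp2c38, Cyp2c70 and Cyp2c23 have none of either kind.

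Sums over genes that share sequence do not depend on how shared reads were split within them, though they do on whether such reads were counted. Cyp2c37, Cyp2c50 and Cyp2c54 together were at a median of 288 CPM in Sham (210 to 650), 878 CPM in WM (513 to 1308) and 1258 CPM in RYGB (1086 to 1567). Within that sum Cyp2c54 gave 1.42% to 6.69% in Sham, against 14.8% to 23.3% with WM and 14.6% to 21.3% with RYGB, while Cyp2c37 stayed near its share, with medians of 21.9%, 20.6% and 22.1%. Cyp2c54 thus rose out of proportion to the 2 genes it shares sequence with. The sum of Cyp2c40, Cyp2c67, Cyp2c68 and Cyp2c69 had a median of 95.8 CPM in Sham, 172 CPM in WM and 273 CPM in RYGB. The Cyp2c40 share of it had medians of 0.509%, 0.89% and 2.73%.

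Of the other 6 Cyp2c genes listed, 4 were in the table and all 4 rose in both treatments. The share of all genes tested that rose was 12.7% in RYGB and 16.5% in WM. Cyp2c23, an arachidonate epoxygenase, was at 87.4 ± 22.6 CPM in Sham, 216 ± 133 CPM in WM and 317 ± 149 CPM in RYGB (1.86 ± 0.31, adjusted p = 6.76e-05 in RYGB, and 1.31 ± 0.31, adjusted p = 0.0017 in WM). Cyp2c70, the enzyme that makes muricholic bile acids in mice, was at 110 ± 43.5, 213 ± 35.2 and 282 ± 53.3 CPM in the same order. It rose by 1.35 ± 0.19 on the log2 scale in RYGB (adjusted p = 7.86e-06) and by 0.95 ± 0.19 in WM (adjusted p = 0.000334). Cyp2c67 rose by 1.65 and 1.24, and the scarce Cyp2c69, at 0.144 ± 0.102 CPM in Sham, by 5.02 and 2.78. Of the 4, only Cyp2c69 differed between RYGB and WM, by 2.24 ± 0.52 (adjusted p = 0.0175), as did Cyp2c40, with which it shares 3′ sequence.

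Livers of 1 group also differed from each other in ways some members shared. After the group means were removed, the 36 pairs among the 9 genes had Pearson correlations over 24 libraries from -0.255 to 0.819 with a median of 0.156, and 30 were positive. The highest were Cyp2c50 with Cyp2c54 (0.819), Cyp2c38 with Cyp2c68 (0.791), Cyp2c37 with Cyp2c50 (0.764) and Cyp2c37 with Cyp2c54 (0.694). These points share library and depth, and the pairs of Cyp2c37, Cyp2c50 and Cyp2c54 also share 3′ sequence, which Cyp2c38 and Cyp2c68 do not exactly. Cyp2c38 fell in WM while Cyp2c68 rose there, so this pair varied together within groups and moved apart in WM against Sham. In RYGB against WM both values were positive (1.50 for Cyp2c38, and 0.43 for Cyp2c68, not called).

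**Figure D5:**
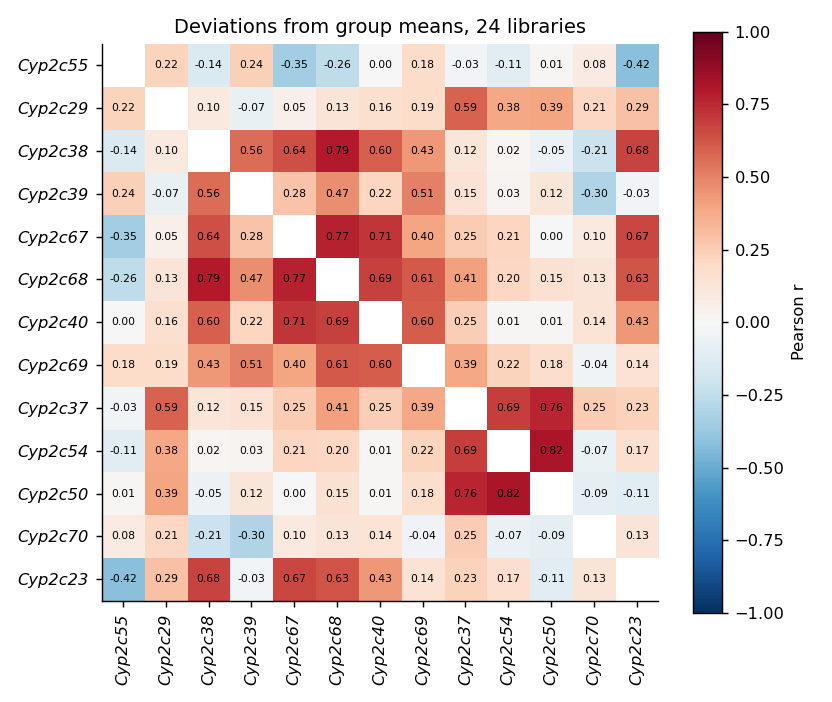
Pearson correlation of log2(CPM + 1) between 13 Cyp2c genes over 24 libraries after each group's mean was removed, in chromosome order. Blocks of higher values are seen among Cyp2c37, Cyp2c54 and Cyp2c50 (0.69 to 0.82), among Cyp2c40, Cyp2c67 and Cyp2c68 (0.69 to 0.77), and for Cyp2c38 with Cyp2c68 (0.79) and with Cyp2c23 (0.68).

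Outside the family, the gene with the pattern most like each member with a mean of at least 5 CPM was found by Pearson correlation of log2(CPM + 1) over all 24 libraries. For Cyp2c54 it was Slco1a1, an organic anion transporter (r = 0.955, Spearman rho = 0.735). For Cyp2c29 it was Abcb11, the bile salt export pump (0.866 and 0.825), and for Cyp2c37 Phyh, a peroxisomal hydroxylase of phytanoyl-CoA (0.908 and 0.886). For Cyp2c50 it was Amy1, an amylase (0.901 and 0.896), for Cyp2c68 the sulfotransferase Sult1a1 (0.927 and 0.903) and for Cyp2c38 the calcineurin regulator Rcan2 (0.94 and 0.946). After removal of group means these values were 0.765, 0.528, 0.675, 0.671, 0.827 and 0.88, in the order named. They are the highest of many genes and describe these libraries only.

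Among the genes that supply electrons to P450 enzymes, Por was at 178 ± 61.9 CPM in Sham, 271 ± 136 CPM in WM and 240 ± 138 CPM in RYGB and passed in no comparison (adjusted p = 0.152 in WM and 0.347 in RYGB, against Sham). Of these 5 genes cytochrome b5 (Cyb5a) rose in RYGB (0.54, adjusted p = 0.0221) and in WM (0.52, adjusted p = 0.0198), and Cyb5b and Pgrmc1 fell in WM (-0.58 and -0.73). Both Cyb5a calls were lost under library totals and after the GC and length correction (0.14 to 0.24 on the log2 scale). Without the 3 libraries with acinar transcripts the values were about as large, 0.51 in RYGB (adjusted p = 0.0754) and 0.47 in WM (adjusted p = 0.0556). The fall of Cyb5b in WM did not pass after the GC and length correction (-0.34, adjusted p = 0.0793). It also did not pass without WM 25 and the 3 libraries with acinar transcripts (-0.45, adjusted p = 0.0684). The median of the 5 genes was -0.12 in RYGB and -0.58 in WM against Sham.

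Downstream of the epoxides, Ephx2 was at 584 ± 105 CPM in Sham, 926 ± 282 CPM in WM and 992 ± 210 CPM in RYGB, and rose in both treatments (0.67, adjusted p = 0.00491 in WM, and 0.76, adjusted p = 0.00219 in RYGB). Neither rise passed under library totals (0.32 and 0.40). Microsomal epoxide hydrolase (Ephx1), which also opens epoxides of drugs, was at 339 ± 212 CPM in Sham and fell in WM to 121 ± 74.7 CPM (-1.49, adjusted p = 0.00547). In RYGB it was at 164 ± 86.7 CPM (-1.05, adjusted p = 0.0538, and -1.57, adjusted p = 0.00888 without the libraries with acinar transcripts). These were the 2 of 4 listed epoxide hydrolases in the table.

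Of 14 other P450 genes that act on arachidonic acid, 4 rose and none fell in RYGB (median 0.60), and 3 rose and 1 fell in WM (median 0.20). Under library totals 2 rose and 1 fell in RYGB (median 0.28), and 2 rose and 3 fell in WM (median -0.11). Over all genes tested, 12.7% rose and 11.0% fell in RYGB, and 16.5% rose and 15.0% fell in WM. Cyp4f14, an omega-hydroxylase that also inactivates leukotrienes, was at 69.1 ± 19.6 CPM in Sham and rose to 233 ± 40.1 CPM with WM and 227 ± 44.7 CPM with RYGB (1.75, adjusted p = 3.99e-08, and 1.72, adjusted p = 9.1e-08). Cyp4a12b rose by 4.82 in RYGB (adjusted p = 3.04e-06) and by 3.36 in WM (adjusted p = 0.000102). The 1 that fell in WM, Cyp4f18, gave -1.27 (adjusted p = 0.0368), and -1.30 (adjusted p = 0.0566) without the 3 libraries with acinar transcripts. With all libraries, none of the 14 differed between RYGB and WM by the test. Cyp4a10 gave 1.65 (adjusted p = 0.0649) and Cyp4a12b 1.46 (adjusted p = 0.231). Both passed without WM 25 and the 3 libraries with acinar transcripts (1.75, adjusted p = 0.0272, and 1.84, adjusted p = 0.0389).

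Of 9 genes that supply arachidonic acid, none passed in RYGB against Sham, and 1 rose and 2 fell in WM. The shares over all genes tested were 16.5% up and 15.0% down in WM, and 12.7% and 11.0% in RYGB. The elongase Elovl5 was at 1637 ± 271 CPM in Sham, 441.2 ± 208 CPM in WM and 1070 ± 360 CPM in RYGB. It fell in WM (-1.89, adjusted p = 2.66e-06) and was higher in RYGB than in WM (1.28, adjusted p = 0.0041). RYGB against Sham gave -0.61 (adjusted p = 0.072). The phospholipase Pla2g12a rose in WM (1.11, adjusted p = 0.00017) and the lysophospholipid acyltransferase Lpcat3 fell there (-0.76, adjusted p = 0.00828). Under library totals 3 of the 9 fell in RYGB against Sham: Pla2g6 (-0.88, adjusted p = 0.042), Elovl5 (-0.95, adjusted p = 0.00873) and Lpcat3 (-0.78, adjusted p = 0.00358). Lpcat3 in RYGB gave -0.44 (adjusted p = 0.14) with TMM and -0.71 (adjusted p = 0.0297) without the 3 libraries with acinar transcripts.

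Among 15 tested regulators of P450 genes, 5 rose and none fell in RYGB, and 5 rose and 1 fell in WM, with medians of 0.39 and 0.47. Among all genes tested, 12.7% rose and 11.0% fell in RYGB, and 16.5% rose and 15.0% fell in WM. CAR (Nr1i3) was at 58.5 ± 13.7 CPM in Sham, 100 ± 19.3 CPM in WM and 86.2 ± 16.1 CPM in RYGB. It rose by 0.77 in WM (adjusted p = 0.000538) and by 0.56 in RYGB (adjusted p = 0.0112). PXR (Nr1i2) was at 37.5 ± 13.2, 45.8 ± 25.2 and 63.5 ± 26.7 CPM and rose in RYGB by 0.76 (adjusted p = 0.0427). For PXR, WM against Sham gave 0.29 (adjusted p = 0.447) and RYGB against WM 0.47 (adjusted p = 0.558). Without the 3 libraries with acinar transcripts the values in RYGB were 0.44 for CAR (adjusted p = 0.089) and 0.37 for PXR (adjusted p = 0.388). Stat5b, which carries the growth hormone signal into the nucleus, was at 27.6 ± 3.65, 27.2 ± 4.49 and 45.02 ± 11.4 CPM, with RYGB above Sham (0.71, adjusted p = 0.00145) and above WM (0.73, adjusted p = 0.00906). Foxa3 rose (0.95, adjusted p = 0.000921) and Stat5a fell (-0.90, adjusted p = 0.00528) in WM. Under library totals none of the 5 rises in RYGB passed, with 0.35 for Stat5b against Sham (adjusted p = 0.129), and 4 of the 15 fell there (Cebpb, Nr3c1, Nr1h4 and Stat5a). In WM 2 rose and 3 fell under that scaling.

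The part of CAR or PXR in the Cyp2c values was not tested. Genes listed here as their targets, Cyp2b9 and Cyp2b13 among them, were counted too. Of 12 tested, 1 rose and 7 fell in RYGB (median -0.80), and 1 rose and 8 fell in WM (median -1.11). For all genes tested the shares that fell were 11.0% in RYGB and 15.0% in WM, and 12.7% and 16.5% rose. Cyp3a11, a drug oxidase induced through PXR, was at 1252 ± 219 CPM in Sham, 155 ± 72.1 CPM in WM and 508 ± 151 CPM in RYGB. It fell in WM (-3.01, adjusted p = 2.63e-09) and in RYGB (-1.30, adjusted p = 0.000262), and RYGB was 1.71 above WM (adjusted p = 0.000131). The order of its group means, Sham highest and WM lowest, was that of Cyp2c38 and Cyp2c39. It was also that of genes outside this list, such as Elovl5 and Ephx1. Cyp2b10, the usual marker gene of CAR activity, was at 4.89 ± 4.13 CPM in Sham, 0.0373 ± 0.0565 CPM in WM and 0.0713 ± 0.179 CPM in RYGB (adjusted p = 5.88e-07 and 2.47e-06 against Sham). Cyp2b13 was at 13.7 ± 10.6 CPM in Sham and at 0 in all RYGB libraries (adjusted p = 1.05e-07). Ces2a, a carboxylesterase, rose in both (1.15, adjusted p = 6.59e-05 in RYGB, and 0.77, adjusted p = 0.00262 in WM). Under library totals the rise of Ces2a in WM did not pass (0.43, adjusted p = 0.0712), and 10 of the 12 genes fell there and none rose.

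Of 15 other liver P450 genes, 8 rose and 1 fell in RYGB (median 0.70), and 7 rose and 2 fell in WM (median 0.67). Without the libraries with acinar transcripts 4 rose and 1 fell in RYGB. With all libraries, 12.7% of all genes tested rose and 11.0% fell in RYGB, and 16.5% rose and 15.0% fell in WM. Cyp2e1, the ethanol-oxidising P450 of pericentral hepatocytes, was at 1470 ± 271 CPM in Sham and rose to 4479 ± 605 CPM with WM and 4087 ± 656 CPM with RYGB (1.61, adjusted p = 1.73e-08, and 1.48, adjusted p = 9.1e-08). RYGB against WM gave -0.13 for Cyp2e1 (adjusted p = 0.848), where Cyp2c29 gave 1.15. Under library totals 4 rose and 2 fell in RYGB. Cyp2u1 rose in both treatments (0.74 in RYGB and 1.22 in WM), though in RYGB it did not pass under library totals (0.39, adjusted p = 0.125), and Cyp2a4 fell in both (-2.80 and -5.40). Cyp2a22 fell in WM (-2.41, adjusted p = 0.0004), with -1.10 in RYGB (adjusted p = 0.0841).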

How the data were processed

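Liver RNA libraries were made with the QuantSeq 3′ kit and read for 50 bp in the forward direction, per the labels' protocols. The authors deposited whole-number counts per Ensembl gene, and a normalized signal that the same deposited counts, divided by median-of-ratios size factors, gave with a largest relative difference of 5e-15. DESeq2 1.34 and R 4.1.2 are listed in the submitters' processing notes. Aligner, counter, genome build and annotation were not given in the sources used here, and the deposited coordinates were not used. Counts were fitted with edgeR 4.0.16 in R 4.3.3 (filterByExpr, TMM, quasi-likelihood F-test, 24 libraries in 1 fit without covariates, Benjamini-Hochberg adjustment over 13121 genes, threshold 0.05). The SE is the absolute log2 fold change over the square root of F. Scripts were tested on simulated data. Alternatives were DESeq2 1.42.0, limma-voom (limma 3.58.1), other scalings and filters, a GC and length correction, the compared groups alone, leaving out each library, and leaving out Sham 17, RYGB 18 and RYGB 19. Named genes were all members, for each list at most the 4 smallest p-values past the threshold, and Por, Cyp2b10, Cyp3a11, Nr1i2 and Nr1i3. The members and lists were chosen with earlier results of these data known.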

Additional observations from a re-analysis of the deposited data

Results flagged for a closer look

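In 30 groups of 8 values (9 genes and their sum, in 3 groups), the highest liver stood apart by Dixon's 95% criterion in 4. The chance rate of about 1 in 20 holds for independent, normally distributed values. CPM of related genes and of their sum are not independent, so 4 of 30 cannot be judged against that rate. Cyp2c37 was at 389 CPM in RYGB 15, with the next RYGB liver at 303 CPM. Cyp2c40 was at 1.99 CPM in Sham 3, with the next at 0.801 CPM. Cyp2c55 was at 4.48 CPM in Sham 17, 1 of the libraries with acinar transcripts, with the next at 2.68 CPM. Cyp2c68 was at 164 CPM in WM 9, with the next at 98.4 CPM. WM 9 was also the highest WM liver for Cyp2c37, Cyp2c38, Cyp2c40, Cyp2c50 and Cyp2c54. Without these libraries, 1 at a time, none of the called differences of these genes from Sham was lost except Cyp2c40 in WM without WM 9 or Sham 17.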

How the results depend on the processing

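Over the alternatives, 884 of 918 values of the members' log2 fold changes kept their direction and their side of the threshold. Apart from those that leave out single libraries, 253 did, 8 passed newly, 7 no longer passed and 2 changed sign. The sign changes were Cyp2c55 in RYGB against Sham under library totals (-0.33) and Cyp2c29 in WM against Sham after the GC and length correction (0.17), both on values that did not pass. Leaving out 1 library moved the Cyp2c55 value between -0.046 and 0.34. Genes called in RYGB against WM were 196, but 361 with DESeq2, 121 with the compared groups alone and 326 after the GC and length correction, and in RYGB against Sham 3109, but 5018 with limma-voom. The cause was not tested. Leaving out 1 library gave 2648 to 3514 genes in RYGB against Sham, 3645 to 4299 in WM against Sham and 136 to 257 in RYGB against WM, and 6 to 7, 7 to 8 and 3 to 5 members. Without WM 25 as well as the 3 libraries with acinar transcripts, an alternative chosen after seeing the data, 6, 7 and 3 members were called. With the other Cyp2c genes added, the summed level was 1306 CPM in Sham, 1958 CPM in WM and 3268 CPM in RYGB. No paired analysis was possible because the groups share no replicate number. Depth limits Cyp2c39, Cyp2c40 and Cyp2c55, with 0 to 283 counts a library.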
